A study of Mus musculus with 8 samples.

Results

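The 9 genes described here write, erase or read DNA methylation: the writers Dnmt1, Dnmt3a and Dnmt3b, the partner of Dnmt1 named Uhrf1, the erasers Tet1, Tet2 and Tet3, and the readers Mbd1 and Mbd2. They were chosen by symbol from a table of 26229 genes, each symbol matched a single row, and all 9 were among the 18085 genes tested. The study compared cortical neurons of wild-type (WT) mice with neurons of the genotype labelled H2BE-KO/mCherry-KI, in which the gene of the histone H2B variant H2BE is knocked out and an mCherry reporter is knocked in. Neurons were taken from embryos at E16.5 and grown in culture for 12 days before polyadenylated RNA was sequenced, with 4 libraries per genotype that the labels call biological replicates. Strain, sex, litter and the insertion site of the reporter were not given in the sources used here. The design asks how loss of H2BE changes the transcripts of cultured neurons.

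DNA methylation in mammals is the addition of a methyl group to cytosine, mostly where cytosine is followed by guanine (CpG). Dnmt1 copies the pattern onto the new strand after replication, and Uhrf1 brings it to sites methylated on the old strand only, whereas Dnmt3a and Dnmt3b methylate sites that carried no mark. Tet enzymes oxidize methylcytosine and so begin its removal, and proteins with a methyl-CpG-binding domain, such as Mbd1 and Mbd2, bind methylated CpG and recruit repressor complexes. Brain neurons are known for high levels of hydroxymethylcytosine, the first product of the Tet enzymes, and for Dnmt3a-dependent methylation outside CpG.

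CpG is what these proteins act on, so the sequences before the annotated starts of their own genes are shown by their CpG content. RefSeq start windows on GRCm38.p6 were found for 7 of the 9 genes, 12 windows in all, and the 250 bases before each start were read. They held from 2 to 51 CpG, against a median of 6 (quartiles 2 and 16) over 32851 windows of the same length in the genome. The windows printed below are the poorest, the richest, and the richer of the pair before Uhrf1, and none of them overlaps an annotated exon of its own gene. Each is written 5′ to 3′ on the strand of the gene, with every CpG in capitals.
Dnmt1, chr9:20959889-20960138, minus strand: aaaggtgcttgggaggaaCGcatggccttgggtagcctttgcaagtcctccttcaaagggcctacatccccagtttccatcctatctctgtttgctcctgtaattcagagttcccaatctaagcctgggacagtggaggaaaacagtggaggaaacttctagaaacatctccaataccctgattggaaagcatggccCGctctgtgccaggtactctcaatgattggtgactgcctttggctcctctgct
Uhrf1, chr17:56304063-56304312, plus strand: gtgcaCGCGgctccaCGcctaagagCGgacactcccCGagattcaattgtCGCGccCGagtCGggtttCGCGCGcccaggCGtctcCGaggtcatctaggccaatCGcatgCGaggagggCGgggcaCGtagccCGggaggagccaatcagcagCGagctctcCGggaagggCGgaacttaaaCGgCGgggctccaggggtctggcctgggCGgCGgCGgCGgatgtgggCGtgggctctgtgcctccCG
Tet2, chr3:133544391-133544640, minus strand: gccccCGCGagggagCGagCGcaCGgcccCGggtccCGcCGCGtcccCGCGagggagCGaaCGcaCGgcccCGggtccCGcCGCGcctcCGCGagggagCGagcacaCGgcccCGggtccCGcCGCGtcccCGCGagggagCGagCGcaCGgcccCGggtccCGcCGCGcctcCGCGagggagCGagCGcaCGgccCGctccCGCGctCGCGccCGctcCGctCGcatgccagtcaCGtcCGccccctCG

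The Dnmt1 window shown, before the most upstream start, held 2 CpG and was richer than 18.8% of all windows. The other windows of Dnmt1 held 7 and 26 CpG. The Uhrf1 window shown held 30 CpG and was richer than 94.1% of windows, and the Tet2 window, built from a short repeated unit, held 51 and was richer than 99.9%. Letters of the E2F type (TTTCCCGC, TTTGGCGC, TTTGCCGC or TTTCGCGC, either strand) stood in 2 of the 12 windows, that of Uhrf1 shown here, as TTTCGCGC, and the CpG-rich window of Dnmt1. Over all windows of that length 1.86% held such letters. The GC box bound by Sp1 (GGGCGG, either strand), which shares no full match with the former set, stood in 10 of the 12 windows and in 32.7% of all windows. The 12 windows come from 7 genes, and some of those of Dnmt3a overlap each other. The background was not matched for CpG content, so these shares cannot be read as an excess in the 12 windows. A match of letters shows no binding.

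Of the 9 genes, 1 rose and 1 fell in the knockout, and the other 7 did not pass the test. Dnmt1 was higher, by 1.44-fold, and Mbd2 was lower, at 0.821 of wild type. Per the authors' deposited table, 21.8% of all tested genes passed the same threshold (an adjusted p under 0.05), 11% higher and 10.9% lower, so that 2 of 9, or 22.2%, is near the background. The median log2 fold change of the 9 genes was -0.13, with 3 above 0 and 6 below, against -0.02 over all tested genes. Their median absolute log2 change was 0.20, against 0.33 over all tested genes. These medians were not matched for read depth. The median standard error was 0.23 over all tested genes, whereas 7 of the 9 genes had one below 0.2. The gap therefore cannot be read as a steadier level of the 9 genes. Every fold change and its standard error (SE) comes from the authors' DESeq2 comparison and is written as knockout over wild type. The header names no direction, which was read from the target: H2bc21, the gene of H2BE, lay in the authors' deposited table at a log2 ratio of -3.45 (SE 0.19, adjusted p = 4.49e-68) once the sign was turned so that the knockout was lower. With the opposite reading, all rises below would be falls and all falls rises.

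**Figure D1:**
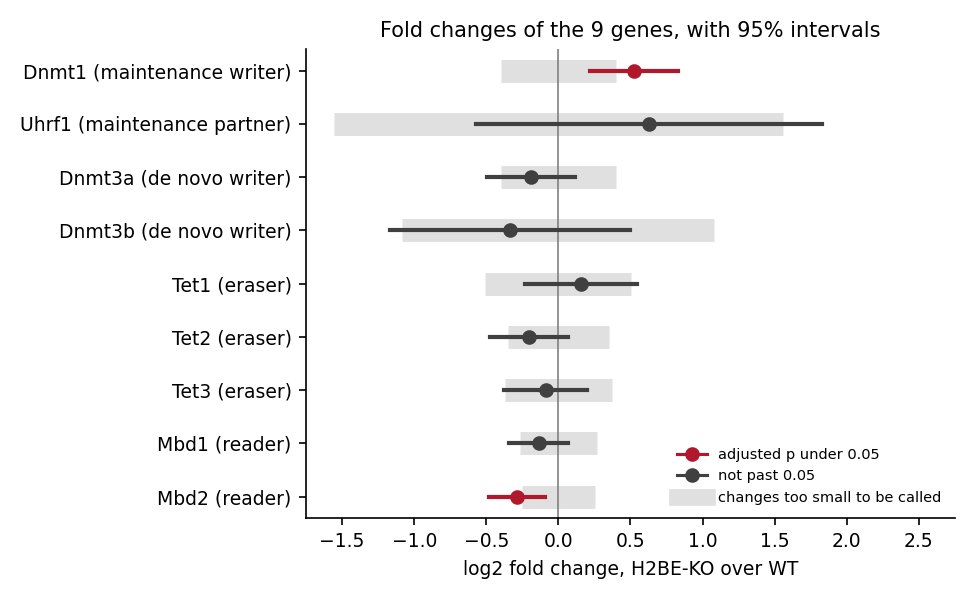
Log2 fold change of each of the 9 genes, knockout over wild type (x axis), with its 95% interval as a line, and the range of changes too small to be called at that gene's error as a grey bar. The points of Dnmt1 (0.52) and Mbd2 (-0.29) lie outside their grey bars, and those of the other 7 genes lie inside.

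The values are those of 1 comparison over all libraries, so the values of single libraries were not analysed here and overlap between the genotypes cannot be given. Genotype levels were derived from the deposited mean normalized count and the fold change, with equal weight for both groups, and are approximate. The mean normalized counts of all genes summed to 3.96e+07. Genes of the neuron marker list, among them Map2 and Snap25, were abundant, with mean normalized counts from 2271 to 90482. Of these 10 markers, 3 rose and 2 fell (50%, against 21.8% of all tested genes). In the authors' deposited table Tubb3 (log2 change 0.74), Rbfox3 (0.72) and Slc17a7 (0.75), the vesicular glutamate transporter gene, were higher, and Gad1 (-1.02), of GABA synthesis, and Syn1 (-0.23) were lower. Slc17a6, another vesicular glutamate transporter gene (0.17, adjusted p = 0.776), and Gad2 (-1.18, adjusted p = 0.0643) did not pass in the authors' deposited table. The part of any shift among neurons in the levels of Dnmt1 and Mbd2 was not tested. Markers of other cells were present too, at 7.24 to 503 for the tested microglial ones, and no marker of any list was at 0. Fewer cells of a type and less RNA per cell cannot be told apart in RNA of whole cultures.

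Dnmt1 (ENSMUSG00000004099, chromosome 9, 20907209 to 20959888 on the minus strand of GRCm38) encodes the maintenance methyltransferase. Its derived level was 2754 normalized counts in wild type and 3961 in the knockout, from a mean of 3357. This is a log2 change of 0.52 in the authors' deposited table (SE 0.16, with 95% limits of 0.22 and 0.83, adjusted p = 0.00679 by the DESeq2 Wald test), or 1.44-fold (1.16 to 1.78). With this SE a change of 1.32-fold would have been called. The SE was above that of 70.7% of the 3834 tested genes whose mean count lay within 2-fold, so the call did not come with an unusually small error. Among those genes 30.2% were called. The call was lost when the Wald statistic was referred to a t distribution with 6 degrees of freedom (adjusted p = 0.125). It was also lost when the null was widened by 1.97 times, the scale seen over all tested genes, changed ones included (adjusted p = 0.721). Of all tested genes, 1 passed with that t distribution and 58 with the widened null, so these losses are not particular to Dnmt1.

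Uhrf1 (ENSMUSG00000001228, chromosome 17, 56303321 to 56323486) encodes the protein that brings Dnmt1 to hemimethylated sites. Its count was low, with a mean above that of 18.8% of tested genes, at a derived level of 11.4 normalized counts in wild type and 17.6 in the knockout. In the authors' deposited table its log2 change was 0.63 (SE 0.61, with 95% limits of -0.57 and 1.83, adjusted p = 0.511). That estimate is larger than that of Dnmt1 and did not pass. With this SE a change below 2.95-fold could not have been called, and the interval covers the change of Dnmt1 as well as no change.

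Dnmt3a (ENSMUSG00000020661, chromosome 12, 3806007 to 3914443), the main de novo methyltransferase of postnatal neurons, was the most abundant of the 9, with a mean normalized count above that of 97.8% of tested genes. Per kilobase of exon its mean was above that of 87.5% of tested genes with a known exon length. Its derived level was 15472 in wild type and 13582 in the knockout. The log2 change in the authors' deposited table was -0.19 (SE 0.16, with 95% limits of -0.49 and 0.12, adjusted p = 0.423), and the interval reached from 0.710 to 1.08 of wild type. Dnmt3a shares 133 exon bases with the antisense gene Dnmt3aos, whose mean count was 0.334.

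Dnmt3b (ENSMUSG00000027478, chromosome 2, 153649450 to 153687730), the de novo enzyme of early embryos, was at 24.9 normalized counts in wild type and 19.7 in the knockout. According to the authors' deposited table its log2 change was -0.34 (SE 0.43, with 95% limits of -1.17 and 0.50, adjusted p = 0.631). Changes below 2.12-fold could not have been called. Per kilobase of exon, Dnmt3a stood 190-fold above Dnmt3b in wild type and 211-fold in the knockout, so that nearly all de novo methyltransferase transcript in both genotypes was that of Dnmt3a.

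The ratio between the maintenance and the main de novo writer differed between the genotypes in its point estimate. Per kilobase of exon, the level of Dnmt3a was 2.49 times that of Dnmt1 in wild type and 1.52 times in the knockout, and their log2 fold changes differed by -0.71 (Dnmt3a less Dnmt1). This difference was not tested, since both values come from the same libraries and how they vary together is not in a table of fold changes. The levels per kilobase of the 3 writers and Uhrf1 together summed to 1311 in wild type and 1361 in the knockout.

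None of the 3 erasers passed the test, and at an unadjusted p under 0.05 the DESeq2 Wald test gave 0 as well. Tet3 (ENSMUSG00000034832, chromosome 6, 83362373 to 83459084) was the most abundant, at a derived level of 5383 normalized counts in wild type and 5063 in the knockout. Its log2 change in the authors' deposited table was -0.09 (SE 0.15, with 95% limits of -0.37 and 0.20, adjusted p = 0.721). Tet1 (ENSMUSG00000047146, chromosome 10, 62804570 to 62908996) was at 1691 and 1886, with a log2 change in the authors' deposited table of 0.16 (SE 0.20, with 95% limits of -0.23 and 0.55, adjusted p = 0.631). Its error was the widest of the 3, above that of 81.8% of genes of like count.

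Tet2 (ENSMUSG00000040943, chromosome 3, 133463679 to 133545139) was at 1586 normalized counts in wild type and 1378 in the knockout. By the authors' deposited table its log2 change was -0.20 (SE 0.14, with 95% limits of -0.47 and 0.07, adjusted p = 0.308). It lies on the chromosome of the targeted gene, 37.2 Mb away. The intervals of the 3 erasers together ran from 0.721 to 1.46 of wild type. Tet enzymes differ in domains, Tet1 and Tet3 having a CXXC domain that Tet2 lacks, and no difference between them in response was tested. Tet3 stood 2.95-fold above Tet1 per kilobase in wild type and 2.49-fold in the knockout, and 3.43-fold and 3.71-fold above Tet2.

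Of the readers, Mbd2 fell and Mbd1 did not pass. Mbd2 (ENSMUSG00000024513, chromosome 18, 70568189 to 70626131) encodes the methyl-CpG-binding subunit of a form of the NuRD repressor complex. Its derived level was 739 normalized counts in wild type and 607 in the knockout. The authors' deposited table listed a log2 change of -0.29 (SE 0.10, with 95% limits of -0.48 and -0.09, adjusted p = 0.0239), or 0.821 of wild type (0.717 to 0.940). The change is smaller than that of Dnmt1, and its call goes with a small error: 94.2% of the 3722 tested genes of like count had a larger SE, with a median of 0.16. At that median SE the Wald statistic would have been -1.78, short of the 2.55 in size needed for a call. The call was also lost with a t distribution (adjusted p = 0.163), with the widened null (adjusted p = 0.834) and at a threshold of 0.01. Of all tested genes, 1 passed with the t distribution and 58 with the widened null, so those losses are not particular to Mbd2. At 0.01, 13.9% of all tested genes passed.

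Mbd1 (ENSMUSG00000024561, chromosome 18, 74267605 to 74282732), a reader with CXXC domains besides its methyl-CpG-binding domain, was at 1285 normalized counts in wild type and 1171 in the knockout. It had a log2 change of -0.13 in the authors' deposited table (SE 0.10, with 95% limits of -0.34 and 0.07, adjusted p = 0.382). Its SE was nearly that of Mbd2, and the intervals of these readers overlap over most of their length, so that a call for Mbd2 and none for Mbd1 does not show that they differ. That difference was not tested.

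**Figure D2:**
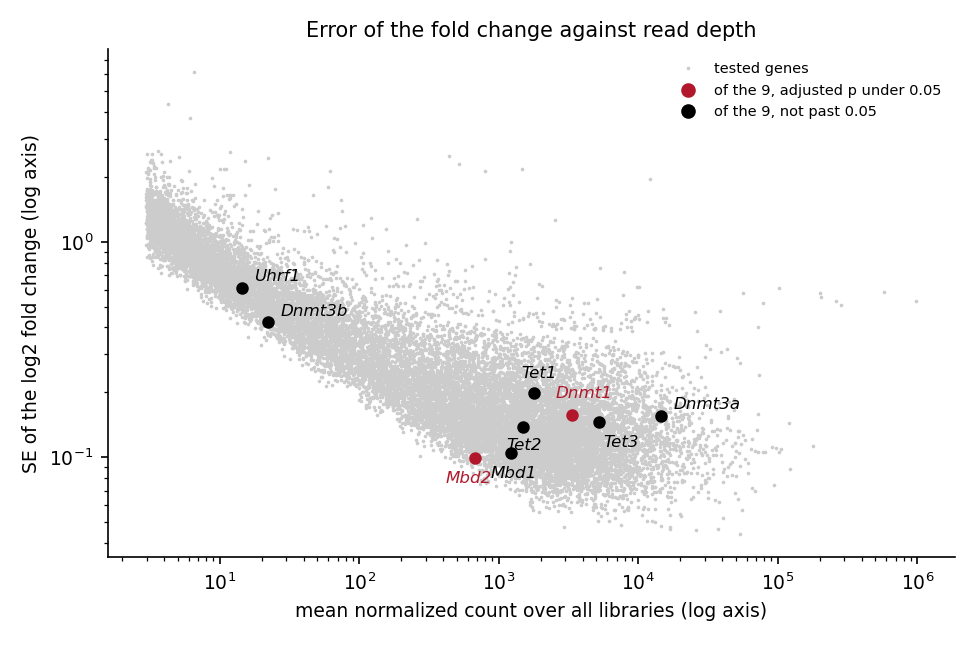
Standard error of the log2 fold change (y axis, log) against the mean normalized count (x axis, log) for the 18085 tested genes in grey, with the 9 genes marked. Uhrf1 (14.5 counts) and Dnmt3b (22.3 counts) sit in the steep part, where the error is larger at lower counts, and Mbd2 lies at the lower edge for its count.

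The 9 genes fall into 7 with a mean normalized count over 500, whose SE was below 0.2, and Dnmt3b and Uhrf1, whose SE was above 0.4. For each gene the SE was turned into the replicate spread it implies beyond counting error, under a negative binomial model with equal library sizes. That coefficient of variation was 8.96% for Mbd2, 9.81% for Mbd1, 13.2% for Tet2, 14.2% for Tet3, 15.2% for Dnmt3a, 15.3% for Dnmt1 and 19.4% for Tet1. For Dnmt3b and Uhrf1 it was 35.8% and 53.7%. The authors' tool shares information on spread between genes, so these are not the spread of the 8 libraries alone.

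Levels of different genes were compared per kilobase of annotated exon. In wild type the order was Dnmt3a (930 normalized counts per kb), Dnmt1 (373), Tet3 (322), Mbd2 (230), Mbd1 (192), Tet1 (109), Tet2 (94.0), Dnmt3b (4.88) and Uhrf1 (2.67). Of the 8 neighbouring pairs, 5 differed beyond their approximate spread. That spread was taken from the SEs of the fold changes, as if the genes of a pair were independent. Both come from the same libraries, and error in exon length is left out, so this is a description and not a test. Dnmt1 and Tet3, Tet1 and Tet2, and Dnmt3b and Uhrf1 did not. In the knockout the order was the same except that Uhrf1 (4.13) stood above Dnmt3b (3.87), a pair that the spread does not separate in wild type. Levels summed over the 9 genes were 2258 per kb in wild type and 2231 in the knockout. Exon length was the union over annotated transcripts, so genes with long alternative exons are understated on this scale.

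**Figure D3:**
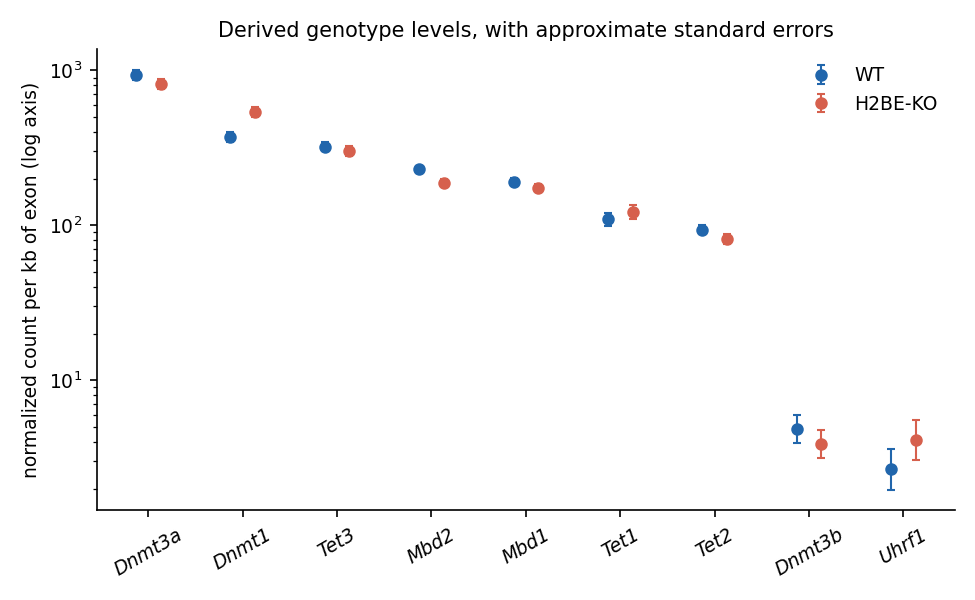
Derived level of each of the 9 genes in wild type and knockout, in normalized counts per kilobase of exon on a log axis, with an approximate standard error as bars (the SE of the fold change divided between both genotypes). Dnmt1 stands at 373 in wild type and 537 in the knockout, and Dnmt3b and Uhrf1 lie below 5 in both.

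Other readers of methylation gave 1 call among 9 tested, or 11.1% against the 21.8% of all tested genes, with a median log2 fold change of 0.02. The called gene was Zbtb38, a zinc finger protein that binds methylated DNA, at 0.52 (SE 0.12, adjusted p = 3.35e-04) in the authors' deposited table. Among relatives of the 9 genes, named after their values were seen, Uhrf2 had a narrow error and a log2 change of -0.03 (SE 0.06, adjusted p = 0.811) in the authors' deposited table. Uhrf2 stood at 287 normalized counts per kb in wild type, against 2.67 for Uhrf1. Mbd3, the NuRD subunit that takes the place of Mbd2 in another form of the complex, was at -0.16 (SE 0.10, adjusted p = 0.246) in the authors' deposited table.

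The NuRD complex, which Mbd2 joins, was covered in part by a list of 12 tested genes. Mbd2, Mbd3, Hdac1 and Hdac2 were counted elsewhere and are not in that list. It gave 1 call (8.33%, against 21.8% of all tested genes), with a median of 0.07. Gatad2a, a subunit that binds Mbd2 and Mbd3, fell to a log2 change of -0.54 (SE 0.12, adjusted p = 2.00e-04) per the authors' deposited table. Its paralog Gatad2b, named after its value was seen, was at 0.26 (SE 0.11, adjusted p = 0.0771) in the authors' deposited table and did not pass.

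Genes of base excision repair and active demethylation complete what the Tet enzymes begin. Of 13 tested, 1 was higher and 1 lower (15.4%, against 21.8% of all tested genes), with a median of -0.04. In the authors' deposited table Smug1, a uracil DNA glycosylase that also removes oxidized pyrimidines, rose to 0.35 (SE 0.14, adjusted p = 0.0483). Gadd45g, of a stress-inducible family linked to demethylation, fell to -0.60 (SE 0.22, adjusted p = 0.0287) in the authors' deposited table. Tdg, the glycosylase that excises oxidized methylcytosine, did not pass. It was named after its value was seen, and the authors' deposited table put it at 0.18 (SE 0.13, adjusted p = 0.321).

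Partners of the writers and erasers gave 5 higher and 1 lower of 22 tested (27.3%, against 21.8% of all tested genes), with a median of 0.20. Idh1, the cytosolic isocitrate dehydrogenase, makes 2-oxoglutarate, the cosubstrate of Tet enzymes. It rose from a derived level of 2492 to 5969 normalized counts per kb, a log2 change of 1.26 (SE 0.19, adjusted p = 6.13e-09) in the authors' deposited table. Cxxc4, a CXXC protein known to bind Tet2, rose to 0.62 (SE 0.14, adjusted p = 1.98e-04) by the authors' deposited table. Morc3, a nuclear ATPase gene, was at 0.41 (SE 0.10, adjusted p = 0.00105) and Ezh2, the catalytic subunit of Polycomb repressive complex 2, at 0.74 (SE 0.21, adjusted p = 0.0033), both in the authors' deposited table. The gene that fell was Cdca7, which works with the remodeler Hells in maintaining methylation, at -1.08 (SE 0.40, adjusted p = 0.0332) per the authors' deposited table. Cdca7 was named after its value was seen. It and Idh1 were called in opposite directions, and the list holds genes of differing function.

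Methyl donor supply, the folate and methionine cycles that make S-adenosylmethionine, gave 1 higher and 2 lower of 16 tested. The share called was 18.8%, against 21.8% of all tested genes, and the median was -0.0021. Mat2a, the enzyme that makes S-adenosylmethionine outside the liver, rose to 0.35 (SE 0.10, adjusted p = 0.00266) in the authors' deposited table. Ahcyl1 and Ahcyl2, relatives of S-adenosylhomocysteine hydrolase, fell to -0.40 (SE 0.10, adjusted p = 0.00103) and -0.41 (SE 0.13, adjusted p = 0.00887) in the authors' deposited table. Mat2a shares 508 exon bases with an opposite-strand gene, and the use of strand in counting is not given in the sources used here, so its count is uncertain.

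**Figure D4:**
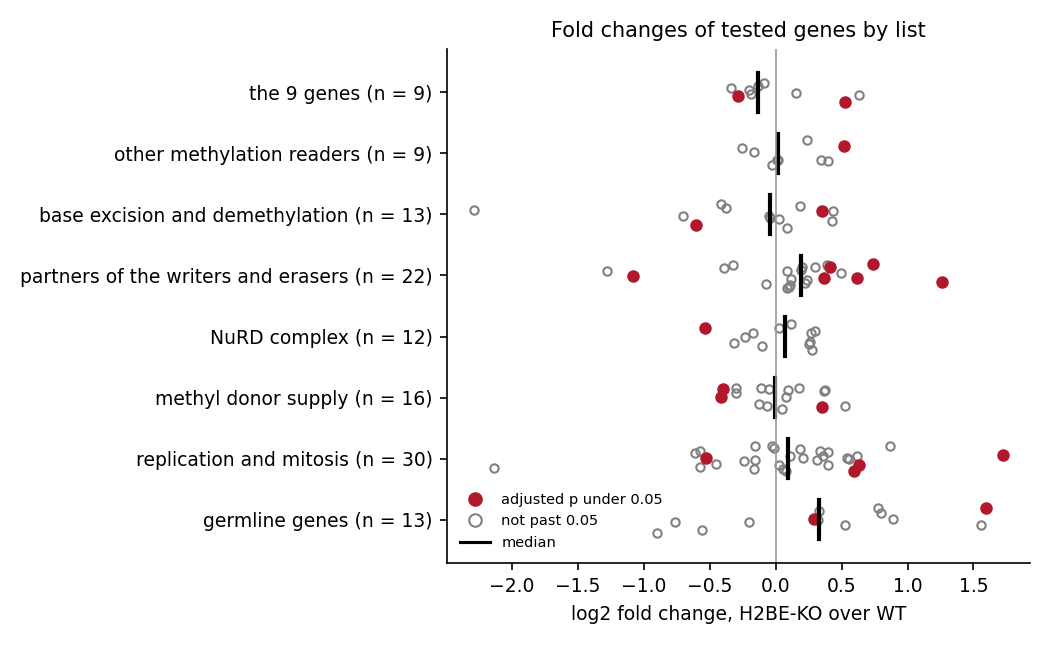
Log2 fold change, knockout over wild type (x axis), of every tested gene in each list, with filled points for an adjusted p under 0.05, open points for the rest and a black bar at the median. Called genes lie on both sides of 0 among the 9 genes, the repair, partner, donor and replication lists, and the medians run from -0.13 to 0.33.

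Dnmt1 and Uhrf1 are transcribed most in dividing cells, so replication and mitosis genes are given beside them. Of 30 tested, 3 rose and 1 fell (13.3%, against 21.8% of all tested genes), with a median of 0.09. Their summed derived level was 4195 normalized counts in wild type and 4994 in the knockout. The 3 called genes that rose, Rrm2 (110 and 365), Mcm7 (382 and 577) and E2f1 (290 and 450), gave most of that rise. Of the 30 estimates, 18 lay above 0 and 12 below. Rrm2, a ribonucleotide reductase subunit, rose to 1.73 (SE 0.24, adjusted p = 2.31e-10) by the authors' deposited table. E2f1, a transcription factor of the cell cycle, was at 0.64 (SE 0.23, adjusted p = 0.0309) and Mcm7, a helicase subunit that shares exon bases with opposite-strand genes, at 0.59 (SE 0.17, adjusted p = 0.00314), again in the authors' deposited table. Kif11, a mitotic kinesin, fell to -0.53 (SE 0.17, adjusted p = 0.0156) in the authors' deposited table. Neural progenitor markers gave 1 higher of 7 tested, Eomes (14.3%, against 21.8% of all tested genes). Their summed level was 4235 in wild type and 5882 in the knockout. Most of the difference in that sum came from Fabp7 (1051 and 2860), which did not pass (adjusted p = 0.0877 in the authors' deposited table), whereas the derived levels of Vim (2232 and 1786) and Sox2 (487 and 373), neither of them called, were lower in the knockout. Astrocyte markers gave 1 higher of 6, Slc1a2 (16.7%, against the same 21.8%), with summed levels of 10292 and 19720, most of it from Slc1a2. The other 5 did not pass, but all 6 estimates lay above 0. Their median log2 change was 0.996, against -0.02 over all tested genes. The part of these cells in the level of Dnmt1 was not tested.

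Of the 5 microglial markers tested, 3 fell, namely Cd68, Csf1r and Tyrobp (60%, against 21.8% of all tested genes called in either direction). In the authors' deposited table Cx3cr1 (log2 change -0.96, adjusted p = 0.574) and Aif1 (0.47, adjusted p = 0.611) did not pass. The summed level of the 6 in the table was 929 normalized counts in wild type and 208 in the knockout, most of it from Cd68 (835 and 171). Endothelial and mural markers gave 3 lower of 4 tested, namely Acta2, Cldn5 and Pdgfrb (75%, against the same 21.8%). Cldn5 had a mean count of 3.00, where the smallest tested was 2.99. Pecam1 (log2 change 0.27, adjusted p = 0.726 in the authors' deposited table) did not pass. The summed level over 5 genes was 483 and 178, most of it from Acta2 (369 and 111). Oligodendrocyte lineage markers gave 1 higher of 5 tested (20%, near the 21.8% of all tested genes), with summed levels of 1414 and 1669. The part of these cells in the fall of Mbd2 was not tested.

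Germline genes include many that promoter methylation keeps silent in somatic cells. Of 30 listed, 22 were in the table and 13 were tested, of which 2 rose and none fell (15.4%, against 21.8% of all tested genes). The median over the tested ones was 0.33, against -0.02 over all tested genes. Mei4, a gene of meiotic recombination, rose to 1.60 (SE 0.39, adjusted p = 6.25e-04) in the authors' deposited table, where its mean count was 34.9. Tdrkh, of the piRNA pathway, rose to 0.29 (SE 0.09, adjusted p = 0.00944) in the authors' deposited table, from a derived level of 2091 normalized counts in wild type. It shares 2255 exon bases with Oaz3 on the other strand, so its count is uncertain. Another 9 were in the table without an adjusted p, and 5 of the 22 had a mean count under 1. The genes that passed the filter on low counts are not all the genes of the list.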

How the data were processed

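Polyadenylated RNA of 4 wild-type and 4 knockout cultures was sequenced from stranded libraries, per the labels' protocols. Per the submitters' processing notes, which state no versions, reads were mapped to mm10 and compared with DESeq2 (the notes also list DESeq). Which aligner, counter, strand setting and annotation were used is not given in the sources used here. Per the file headers, the signal column averages normalized counts over the 8 libraries, and the fold change and its SE are log2 values. The score the authors deposited is the Wald statistic, and the deposited p-value its two-sided normal p, which was checked (largest gap 0.477%), as was the Benjamini-Hochberg adjustment (0.757%).

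An adjusted p was present for 18085 of 26229 rows, which are called tested. A further 8135, with a mean count of at most 2.99, had a p only, and 9 had neither. A call was an adjusted p under 0.05 over all tested genes. Depth per library was not analysed here, which limits precision to the deposited SE. The p-values weigh each fold change against that SE, which rests on the spread within genotypes and on information shared between genes. Intervals are the fold change plus or minus 1.96 SE. Genotype levels were solved from the mean count and the fold, assuming 4 libraries of equal weight each. Lengths and positions are those of GENCODE M21 (GRCm38, the assembly of mm10). Promoter windows are RefSeq's on GRCm38.p6. No count model was run.

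The members and lists were chosen with earlier results of these data known, and no list was tested as a set. A gene of the methyl donor list is not reported here. Named genes are the 9 genes, the target, and in each list up to 4 called genes of smallest adjusted p. Other list genes given with a value, apart from cell type markers, are said to be chosen after their values were seen. The markers Map2, Snap25, Syn1, Slc17a6, Gad2, Fabp7, Vim, Sox2, Cx3cr1, Aif1 and Pecam1 were also named outside that rule, with their values known. Scripts were tested on simulated data. Python 3.11.15, numpy 2.4.6, pandas 2.3.3, scipy 1.17.1 and matplotlib 3.10.9 were used. Alternatives were other thresholds, filters, null distributions and centrings.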

Additional observations from a re-analysis of the deposited data

How the results depend on the processing

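Both calls among the 9 genes, Dnmt1 higher and Mbd2 lower, were kept with no filter on low counts, with genes of a mean count of at least 100 only, at an adjusted p under 0.1, and after centring on the median of the tested genes (-0.02) or of those with a mean count of at least 1000 (-0.02). At 0.01 the count of lower genes was 0, Mbd2 (-0.29) being lost and Dnmt1 kept. With a t null (6 degrees of freedom) both counts were 0 by the Wald statistic (Dnmt1 0.52, adjusted p = 0.125; Mbd2 -0.29, adjusted p = 0.163), 2 genes having an unadjusted p under 0.05, and of all tested genes 1 passed. With the empirical scale of 1.97 both counts were again 0 (Dnmt1 0.52, adjusted p = 0.721; Mbd2 -0.29, adjusted p = 0.834), 0 genes had an unadjusted p under 0.05, and 58 of all tested genes passed. Which null is apt cannot be settled from this table. Neither centring changed a sign among the 9 genes, and the other settings leave the fold changes as deposited.

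Counts in the lists moved with the threshold, which 13.9% of all tested genes passed at 0.01 and 28.0% at 0.1. At 0.01, the repair list had 0 higher and 0 lower, partners 4 higher and 0 lower, and replication and mitosis 2 higher and 0 lower. At 0.1, other readers had 2 higher, the repair list 2 higher and 2 lower, partners 7 higher and 2 lower, NuRD 4 higher, methyl donor supply 2 higher, replication and mitosis 3 lower, and germline genes 4 higher. No paired analysis was possible because the table holds no values per library, and for the same reason leaving out single replicates and other count models were not run.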
